A study of Rattus norvegicus with 4 samples.

Results

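The regions described here are wide stretches of chromatin with a low density of trimethylated histone H3 lysine 4 (H3K4me3) in rat sciatic nerve. They were chosen by their own measured values. Peaks of a sham list and a transected list that overlapped by 1 bp or more were merged, and a merged region was kept when both lists called it, when its summed called length reached 1500 bp in at least one list, and when it held fewer than 150 normalized tags per kb of called length in both lists. A normalized tag is a sequenced fragment end scaled to a library of 10000000. Of 39013 merged regions, 27962 were shared by both lists, 8829 of those were wide, and 1630 met every condition. The 1630 are called members below. They made up 18.5% of the wide shared regions and 5.83% of all shared regions.

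The material was whole sciatic nerve of adult male Sprague Dawley rats, taken 1 day after surgery. The 2 transected samples were the nerve distal to a complete cut, and the 2 sham samples were contralateral nerves of limbs that received a skin incision alone. Chromatin was cut with micrococcal nuclease and precipitated with an anti-H3K4me3 antibody. The labels do not tell if each sample was its own animal. For all 4 samples they give P42 under passage, and what P42 stands for is not stated. Samples of a group were pooled by the authors before peaks were called, so there was 1 list per condition, no spread between replicates exists for any value, and no p-value can be given. Depth was 22595649 tags for sham and 21307148 for transected nerve.

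H3K4me3 is laid down by COMPASS-family methyltransferases and is strongest at the start sites of transcribed genes, where it is usually narrow and dense. Lower and wider H3K4me3 is known from promoters that also carry H3K27me3, the mark of Polycomb repression, and that are called poised or bivalent. Many of these belong to developmental regulators such as the homeobox genes. Schwann cells, the glia of peripheral nerve, switch after axon loss from myelination to a repair programme. The lists hold neither H3K27me3 nor gene names, and no annotation of their genome build was used, so whether a member is a promoter, or a poised one, was not tested. The nerve also holds fibroblasts, endothelial cells and immune cells. In such bulk tissue a change in the number of cells that carry the mark and a change in the mark per cell cannot be told apart.

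Members were as wide as the other wide regions but held far fewer tags. This follows from the rule and is given as a description. The median member had 185 normalized tags over 2015 bp in sham nerve and 161 over 1861 bp after transection. Its density was 89.4 tags per kb in sham and 85.4 after transection. The other 7199 wide shared regions, called wide denser regions here, had medians of 800 tags over 2064 bp and 358 tags per kb in sham, and of 806 tags over 2031 bp and 371 tags per kb after transection. Members covered 3.74 Mb of the sham list, 10.9% of its called length, and carried 3.96% of its tags in peaks. In the transected list they covered 3.43 Mb, 10.8% of the called length, and carried 3.57% of the tags.

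Low density did not mark off a separate group among wide regions. Between 50 and 450 tags per kb (mean of both lists), each step of 50 tags per kb held from 756 to 828 wide regions, and the lowest of these counts, 756, was the step from 150 to 200, between neighbours of 788 and 796. Members just inside the limit were chr20:32213831-32215963, with 123.5 tags per kb in sham and 149.9 after transection, chr4:210080972-210082790, with 134.6 and 149.9, and chr5:173005336-173007169, with 149.8 and 132.0. Just outside it lay chr16:81150942-81154342, with 150.2 and 107.9 tags per kb, chr3:127098552-127103394, with 150.2 and 94.5, and chr1:124201140-124202870, with 150.2 and 133.5. At the length limit the nearest members reached 1500 bp (chr5:151157063-151158563) and 1501 bp (chr5:177098691-177100224 and chr10:105278289-105280132) in their longer list. The nearest regions left out reached 1499 bp (chr3:68102508-68104007) and 1498 bp (chr2:48579697-48581199 and chr15:55572117-55573645). Positions are printed as the lists have them, and which genome build they follow was not given in the sources read.

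**Figure D1:**
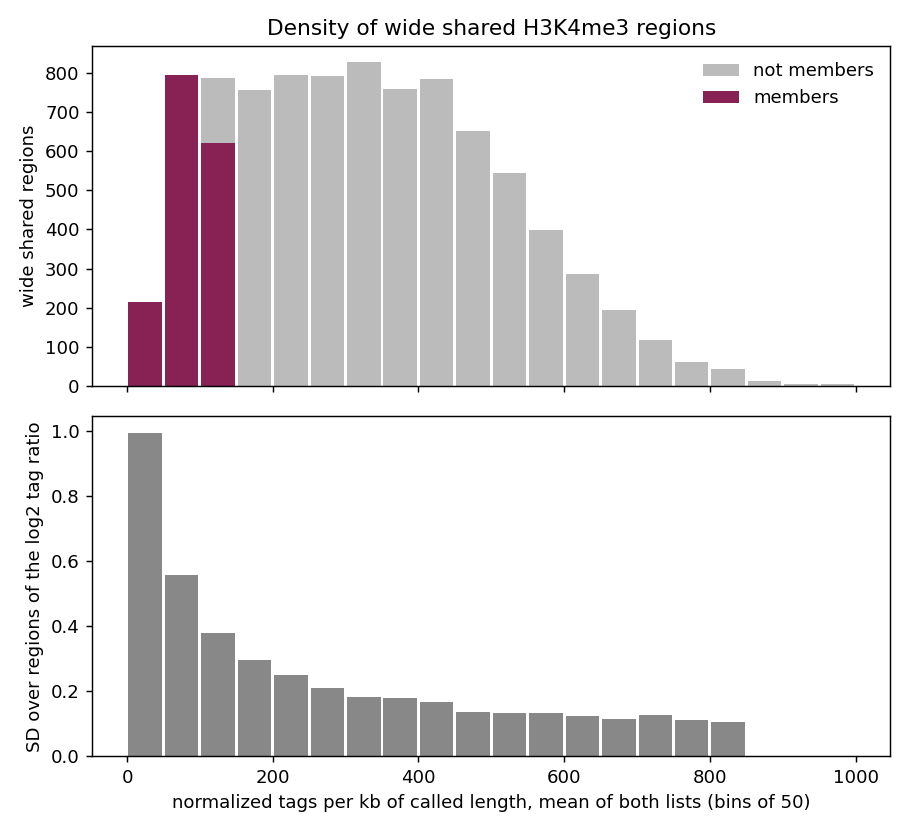
Upper panel: number of wide shared regions (vertical axis) by normalized tags per kb of called length, mean of both lists (horizontal axis, steps of 50), with members in colour. Lower panel: standard deviation over regions of the centred log2 ratio of tags, transected over sham, in the same steps (steps of under 20 regions left out). Counts stay between 756 and 828 from 50 to 450 tags per kb, while the standard deviation falls from 1.00 in the lowest step to 0.30 between 150 and 200.

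The members closest to a continuous domain were few and very wide. The member with most tags by the mean of both lists, chr19:36788157-36797854, held 1217.0 normalized tags over 9317 bp in sham and 1364.3 over 9697 bp after transection, called as 1 piece in both. Its densities of 131 and 141 tags per kb lay close together. The next, chr10:82559992-82569685, held 1330.8 tags over 9693 bp in sham as 1 piece. In transected nerve it held 954.7 tags over 6455 bp in 5 pieces, yet its density was 137 tags per kb in sham and 148 after transection. The member at chr7:120392128-120401128 had 1032.5 and 1016.6 tags over 8494 and 8982 bp, and here the sham list was the one that split, into 2 pieces. At chr13:86101095-86109567 there were 1068.8 and 895.05 tags over 8472 and 7862 bp. At chr3:9394322-9403077 there were 818.3 and 822.3 tags over 8657 and 8532 bp, and at chr9:97045064-97051828 995.8 and 777.2 tags over 6764 and 6135 bp. Across these 6 members the centred difference in tags ran from 1.33-fold lower to 1.18-fold higher after transection. Only 109 members (6.69%) spanned 4 kb or more.

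At the other end stood members whose density was near what the caller needs. The caller's threshold of 8 tags per 150 bp window corresponds to 23.6 normalized tags per kb for sham and, at its lower depth, 25.03 for the transected list. The least dense member by the mean of both lists, chr1:102141221-102142837, had 24.8 tags per kb over 1571 bp in sham and 24.3 over 580 bp after transection. Those at chr4:225038782-225040310 (28.4 and 22.9 tags per kb), chr2:52149336-52150883 (27.5 and 24.0), chr13:92596480-92598020 (24.2 and 28.3) and chr8:63371278-63373532 (24.1 and 29.3) followed. In each of these 5 the transected list called the shorter stretch. The part of the higher threshold of the transected list in its shorter calls was not tested.

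Transected against sham, members were on the whole slightly lower, and most differences were small. Ratios were centred on the median of all shared regions, which was -0.07 on the log2 scale. The median centred log2 ratio of tags was -0.11 in members, against 0 in all shared regions by construction and 0.09 in wide denser regions. Narrow low-density regions, which met the density limit but not the length limit, had a median of -0.14, so the lowering was not particular to members. Tags were below the centre in 985 members (60.4%) and above it in 645. Below the centre lay 59.5% of narrow low-density regions and 31.5% of wide denser regions. Tags were lower after transection by 2-fold or more in 89 members (5.46%) and higher by as much in 33 (2.02%). The background over all shared regions was 5.95% lower and 3.17% higher, so the members' shares lay near or under it. At 1.5-fold, 241 members (14.8%) were lower and 101 (6.2%) higher, against 13.8% and 7.6% of all shared regions. The wide denser regions differed less often: 7 (0.0972%) were 2-fold lower or more and 9 (0.125%) were higher by that much. Narrow low-density regions differed more often, with 10.7% lower and 5.73% higher. These shares describe 2 pooled lists, and no test of the difference between classes was made.

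**Figure D2:**
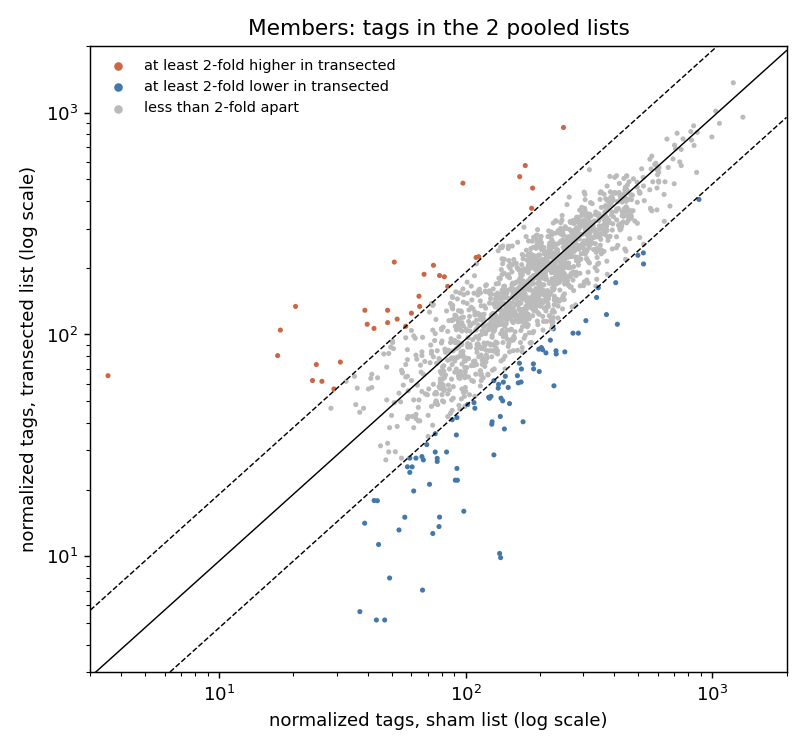
Each point is 1 of the 1630 members, placed by its normalized tags in the sham list (horizontal, log scale) and in the transected list (vertical, log scale). The solid line is the median ratio of all shared regions and the dashed lines are 2-fold to either side. The 89 members beyond the lower line and the 33 beyond the upper line lie mainly among those with fewer tags.

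The size of the difference varied with density. In the 214 members under 50 tags per kb (mean of both lists), the centred log2 ratio of tags had a median of -0.35. Its standard deviation over regions was 1.00. Of these members, 44 (20.6%) were lower by 2-fold or more and 17 (7.94%) higher, against 5.95% and 3.17% of all shared regions. In the 794 members from 50 to 100 tags per kb the median was -0.14 and the standard deviation 0.56. There 41 (5.16%) were lower and 13 (1.64%) higher. In the 622 members from 100 to 150 tags per kb the median was -0.047 and the standard deviation 0.35. There 4 (0.643%) were lower and 3 (0.482%) higher. Beyond the members the median went on upward with density, to 0.0018 in wide regions from 150 to 200 tags per kb and 0.10 from 400 to 450.

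The sham list called members longer than the transected list did. Without centring, 1162 of the 1630 (71.3%) were longer in sham, 466 (28.6%) longer after transection and 2 equal. Over all shared regions 62.9% were longer in sham, 32.9% longer after transection and 4.23% equal. In wide denser regions these shares were 59.4%, 40.5% and 0.153%, and in narrow low-density regions 62.6%, 29.6% and 7.77%. At least 1.5-fold shorter calls after transection, after centring, were seen in 131 members (8.04%) and at least 1.5-fold longer ones in 62 (3.8%). Over all shared regions these shares were 11.3% and 4.79%. The median centred log2 ratio of called length was -0.047, and that of tags per kb -0.052. By density, 103 members (6.32%) were lower after transection by 1.5-fold or more and 45 (2.76%) higher, against 5.9% and 5.48% of all shared regions. Density was at least 2-fold lower in 12 members (0.736%) and 2-fold higher in 2 (0.123%), against 0.855% and 0.887%.

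The imbalance differed with the list in which a member reached the length limit. Of the members, 1140 reached 1500 bp in both lists, 375 in sham alone and 115 after transection alone. The median centred log2 ratio of tags was -0.053, -0.44 and 0.43 in these groups. Among the 1140, 19 members (1.67%) were lower by 2-fold or more and 15 (1.32%) higher, against 5.95% and 3.17% of all shared regions. The median centred log2 ratio of called length in the 1140 was 0.0024. At 1.5-fold, 104 of the 1140 were lower and 54 higher, where the shares of all shared regions were 13.8% and 7.6%. Without centring, 787 of the 1140 (69.0%) were called longer in sham and 351 longer after transection. These 2 counts include the offset between the lists, a median log2 length ratio of -0.065 over all shared regions. The other 70 members that were 2-fold lower reached the limit in sham alone, 18.7% of the 375. The other 18 that were 2-fold higher reached it after transection alone, 15.7% of the 115. A limit passed in one list alone fixes which list called the longer stretch. It does not fix the direction of tags for every member: centred log2 ratios of tags reached 0.55 among the 375 and -0.33 among the 115. At 1.5-fold, however, the direction was one-sided. Of the 375, 137 were lower and 0 higher, and of the 115, 47 were higher and 0 lower.

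**Figure D3:**
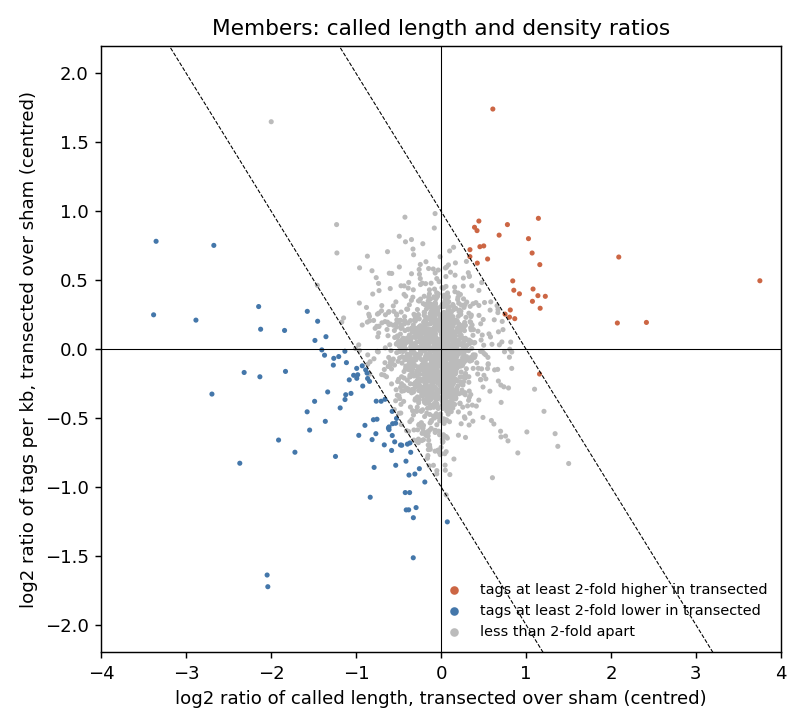
Each point is 1 member, placed by its centred log2 ratio of called length (horizontal) and of tags per kb (vertical), transected over sham. Dashed lines mark about 2-fold differences in tags, which is length multiplied by density. Of the 122 members at least 2-fold apart, all 33 higher ones and 88 of the 89 lower ones were called longer in the list with more tags, a side that the length limit favours.

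Members whose tags differed 2-fold also differed in called length, on which the rule selected, so the following values are a description. For the 89 lower members, median length was 2015 bp for sham against 1002 bp after transection, and median density 57.7 against 44.0 tags per kb. The exception that was not longer in sham was chr18:37075290-37077359, with 108.9 tags over 1887 bp in sham and 46.5 over 1898 bp after transection. For the 33 higher members, median length was 1404 bp for sham against 2342 bp after transection, and median density was 38.9 and 59.8 tags per kb. Density pointed the same way in 78 of 89 lower and 32 of 33 higher members and was itself 2-fold apart in 11 and 1. The list with fewer tags had split the region in 45 of the 89 and in 20 of the 33.

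The highest ratios of tags belonged to members that the sham list called only in part. At chr7:120971571-120973506 the sham list held 3.54 normalized tags in a single window of 150 bp and the transected list 65.2 tags over 1935 bp, a centred log2 ratio of 4.27 (95% counting interval 3.26 to 5.51). Its density was 23.6 tags per kb in sham, the threshold itself, and 33.7 after transection. At chr12:4375234-4377350 there were 20.4 tags over 519 bp in sham and 133.8 over 2116 bp after transection, at 39.3 and 63.2 tags per kb. The member at chr9:81194372-81197269 had 17.7 tags in 3 pieces of together 567 bp in sham and 104.7 tags over 2897 bp after transection, with close densities of 31.2 and 36.1. The member at chr1:206583718-206585451 had 17.26 tags over 430 bp and 80.3 over 1733 bp, at 40.1 and 46.3 tags per kb. In these 4 the stretch that the transected list called was 4 to 13 times as long, while density differed by 1.14-fold to 1.59-fold after centring.

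Among the 10 highest, 1 member also stood 2-fold apart by density. At chr4:58119991-58124837 density was 29.3 tags per kb over 3320 bp in sham and 99.4 over 4842 bp after transection, 3.35-fold higher after centring, and both lists called 1 piece. The other 5 were chr1:226332969-226334856, chr2:76896064-76902452, chr16:20538681-20542959, chr9:13572430-13575097 and chr4:716468-720856. Their densities in sham and transected nerve were 57.5 and 112, 76.1 and 134, 87.2 and 135, 29.4 and 48.2, and 62.0 and 117 tags per kb. All 10 had more tags per kb after transection, and the sham list had split 5 of them.

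The lowest ratios showed the reverse arrangement, with 1 difference: density did not always follow. At chr17:58947030-58948786 the sham list held 138.5 normalized tags over 1545 bp and the transected list 9.86 over 359 bp, a centred log2 ratio of -3.74 (95% counting interval -4.46 to -3.11). At chr16:82517532-82519194 there were 137.2 tags over 1662 bp and 10.3 over 384 bp (log2 -3.67, interval -4.36 to -3.04). These 2 members also had the lowest ratios of density, from 89.6 to 27.5 and from 82.5 to 26.8 tags per kb, so what remained in the transected list lay just above the threshold. The counting intervals hold no error for where an edge was called and cannot stand for replicates. The next was chr1:192832231-192833915, with 66.8 tags over 1623 bp in sham and 7.04 over 300 bp after transection.

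At 3 of the 10 lowest members density was higher after transection although tags were lower. They were chr10:65873968-65875608, with 28.6 and 34.4 tags per kb over 1640 and 150 bp, chr13:92596480-92598020, with 24.2 and 28.3 over 1540 and 199 bp, and chr6:147241545-147243152, with 30.5 and 53.2 over 1607 and 150 bp. In these the transected list kept 150 to 199 bp of a stretch that the sham list called whole. The remaining 4 were chr4:225038782-225040310, chr10:11923436-11925495, chr5:137367874-137370074 and chr6:146169779-146171307, from 5.45-fold to 8.01-fold lower after centring. In sham nerve they held 43.4, 98.2, 73.5 and 77.9 tags, and after transection 5.16, 15.96, 12.67 and 13.61.

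Differences in tags with nearly the same called stretch were smaller. Both lists called 1 piece at 1127 members, and at 524 of these the called stretches overlapped by 90% or more of the merged span, a limit chosen after the values were seen. There the centred log2 ratio of tags had a median of -0.013 and a standard deviation of 0.28, with 0.10 from counting error alone. The median centred log2 ratio of tags per kb was -0.056, close to the -0.052 of all members. By tags, none of the 524 was 2-fold apart, 9 were higher after transection by 1.5-fold or more and 18 lower. The same selection among wide denser regions kept 4099, with a standard deviation of 0.18, a counting error of 0.05, and 18 higher and 11 lower at 1.5-fold. Selecting for like edges also selects for like signal, so these counts are no estimate for all members.

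The clearest of these members, named after their values were seen, were the following. At chr3:99053832-99055576 there were 144.3 normalized tags over 1667 bp in sham and 69.9 over 1661 bp after transection, a centred 1.97-fold decrease (log2 -0.98, with -1.26 to -0.69 as the 95% counting interval). At chr7:115663955-115665596 tags were 142.1 and 77.4 over 1637 and 1620 bp, and at chr11:61864144-61865654 they were 196.1 and 110.8 over 1510 and 1433 bp. In the other direction, chr2:218082547-218084587 had 88.1 tags over 2040 bp in sham and 148.3 over 1845 bp after transection (log2 0.82, interval 0.56 to 1.09). At chr5:130891071-130893019 tags were 149.1 and 250.2 over 1813 and 1948 bp, and at chr14:82150887-82153490 they were 105.3 and 165.2 over 2558 and 2596 bp. In each of the 6 the density differed in the direction of the tags. This follows from choosing large ratios of tags over nearly equal lengths.

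Density ratios at the extremes included regions with a changed stretch. Besides the members already given, density was lower after transection at chr13:95195617-95198579 (139 tags per kb in sham and 49.3 after transection) and at chr1:171878606-171881555 (126 and 54.7, with 372.2 and 123.0 tags over 2949 and 2248 bp). Density was higher after transection at chr1:90676480-90678619 (29.1 and 58.3 tags per kb) and chr14:114285163-114286918 (64.0 and 126). At chr1:81478891-81480582 it was 47.1 in sham and 149.8 after transection, but tags were 79.7 over 1691 bp and 60.5 over 404 bp, so the higher density came with fewer tags over a shorter stretch. The clonal fold there, a measure of repeated tag positions, was 0 in sham and 1 after transection.

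Members were split more often by the transected list than by the sham list. Of the 1630, 342 (21.0%) were whole in sham and split after transection, 139 (8.53%) were split in sham and whole after transection, 22 were split in both and 1127 (69.1%) were whole in both. In wide denser regions the first 2 counts were nearly equal, 397 (5.51%) and 369 (5.13%). Members split after transection alone had a median centred log2 ratio of tags of -0.40, and those split in sham alone 0.37. A gap between pieces enters no tag sum, so a split lowers both length and tags. When both ends could be compared, in the 1127 members whole in both lists, sham extended further at both ends in 495 (43.9%) and transected nerve in 156 (13.8%). In wide denser regions these shares were 35.3% and 16.9%. Edges of members moved by a median of 82.5 bp and their mid-points by 80 bp, against 61 and 54.5 bp in wide denser regions. The part of depth and of the caller's threshold in these edge and split counts was not tested.

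Columns that the rule did not use differed little or moved with density. The findPeaks score, the highest of a region's pieces, had a median of 10 in sham and 11 after transection for members and 11 in both lists for wide denser regions. The clonal fold had a median of 0.54 in both lists for members, against 0.94 in sham and 0.93 after transection for wide denser regions. It exceeded 1 in either list in 16 members (0.982%) and in 3882 wide denser regions (53.9%). Low density leaves fewer chances for repeated positions, so this ratio is not independent of the rule.

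Members often had another called region close by. Within 1 kb of 618 members (37.9%) lay another region of either list, against 23.4% of wide denser regions and 24.8% of all shared regions. Shares of neighbour kinds follow for these 618, beside the 6929 of all shared regions with a neighbour that close. The nearest was a narrow low-density region for 221 members (35.8%, against 34.1%). It was a region of the sham list alone for 171 (27.7%, against 20.8%) and of the transected list alone for 109 (17.6%, against 16.9%). Another member was nearest for 45 (7.28%, against 5.01%) and a wide denser region for 43 (6.96%, against 11.6%). The median distance from a member to the nearest wide denser region was 72715 bp, against 55241 bp from one wide denser region to the next. The nearest other member lay within 50 kb of 346 members (21.2%), whereas 984 wide denser regions (13.7%) had a member that close. These distances describe the map and carry no test.

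Runs of members within 50 kb of each other were mostly short, with 3 longer ones. Of the members, 1284 stood alone and 121 runs held 2, 22 held 3 and 4 held 4. The longest run lay at chr7:142349188-142470666, where 11 members fell within 121478 bp. All 27 called regions of this stretch were 11 members, 3 wide denser regions, 7 narrow low-density regions and 6 regions of 1 list. The members held 2035.5 normalized tags in sham and 1776.8 after transection. Their densities ran from 54.0 to 143 tags per kb in sham and from 44.3 to 145 after transection, and 8 of the 11 lay below the centre, from a log2 ratio of -0.86 to 0.47.

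Within that run the members differed among themselves more than the nerves did. The strongest, chr7:142356471-142359656, held 441.2 and 432.2 tags over 3133 and 3069 bp in sham and transected nerve, at 141 tags per kb in both. At chr7:142438880-142440994 there were 301.4 and 264.2 tags, and at chr7:142414981-142417892 263.8 and 237.5. The first member of the run, chr7:142349188-142351042, held 162.0 tags over 1854 bp in sham and 84.9 over 1091 bp after transection, the lowest ratio of the 11. The member at chr7:142396034-142397625 had the highest, with 88.1 tags over 1157 bp and 116.4 over 1527 bp, at 76.2 tags per kb in both. Both of these differences came mainly with called length.

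The run of 6 members at chr10:83922390-84005364 was close between the nerves. It held 1366.9 normalized tags in sham and 1241.8 after transection, no wide denser region lay inside, and the 6 log2 ratios ran from -0.36 to 0.31. Its strongest member, chr10:83942794-83947237, had 467.3 tags over 4430 bp in sham and 345.9 over 4301 bp after transection, and chr10:83969482-83971878 had 255.4 and 300.8 over 2365 and 2380 bp. These 2 neighbours in the run thus lay on opposite sides of the centre over nearly equal lengths. The run of 5 at chr5:172807215-172935779 held 832.6 and 701.56 tags, and all 5 members were called longer in sham. Its members ranged from chr5:172847336-172848944, with 48.7 and 29.57 tags, to chr5:172807215-172809902, with 293.0 and 218.7. Whether these runs lie in gene clusters was not tested, for want of an annotation of the build.

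**Figure D4:**
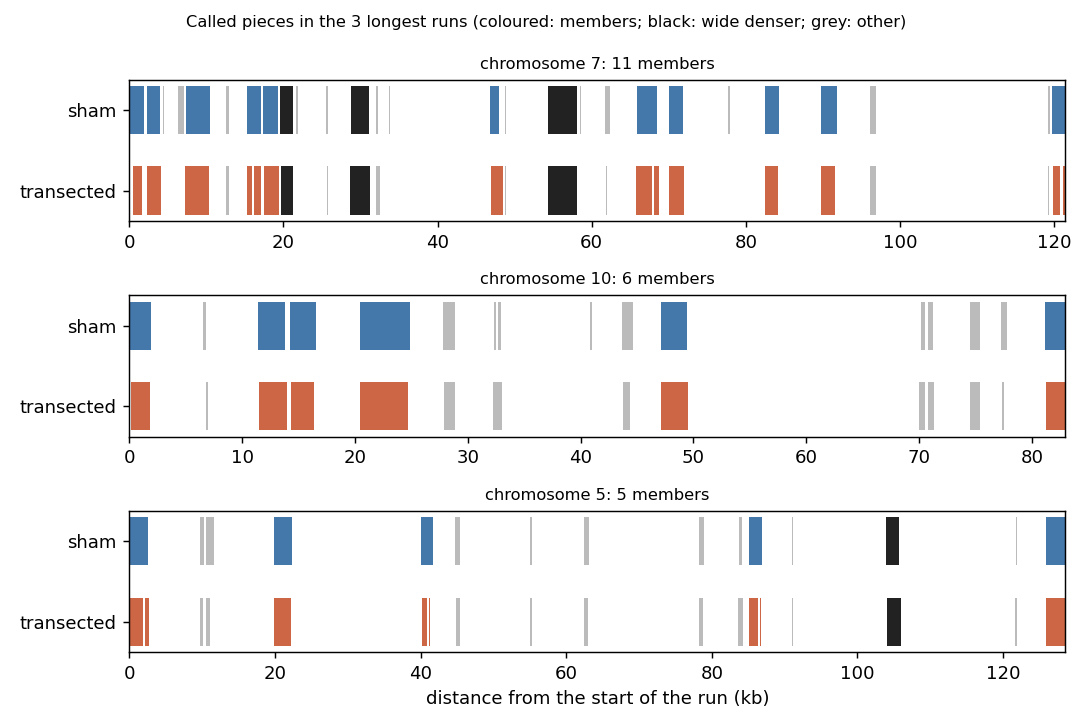
Called pieces of the sham and transected lists along the 3 longest runs of members, by distance in kb from the start of the run. Members are coloured, wide denser regions black and all other called regions grey. The same members recur in both lists, and in the chromosome 7 run the transected list breaks some of them into pieces.

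Chromosome X held the largest share of members. Of its 237 wide shared regions 61 were members (25.7%, exact 95% interval 20.3 to 31.8), against 18.3% on the autosomes together (17.4 to 19.1), where single chromosomes ran from 14.6% on chromosome 11 to 21.4% on chromosome 13. The intervals are Clopper-Pearson, treat regions as independent and cover counting error only. The part of the single X of male rats in this share was not tested. With a limit of 75 tags per kb the share was 7.59% on X and 5.49% on the autosomes together. Chromosome 13 then had the largest share, 7.83%. The median density of all wide shared regions on X was 220 tags per kb in sham and 216 after transection, against 318 and 323 on the autosomes. The median centred log2 ratio of tags was -0.15 for members on X and -0.11 for those on autosomes. None of the 61 was 2-fold higher and 5 (8.2%) were 2-fold lower after transection, beside 3.17% and 5.95% of all shared regions, so both counts lay near the background.

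**Figure D5:**
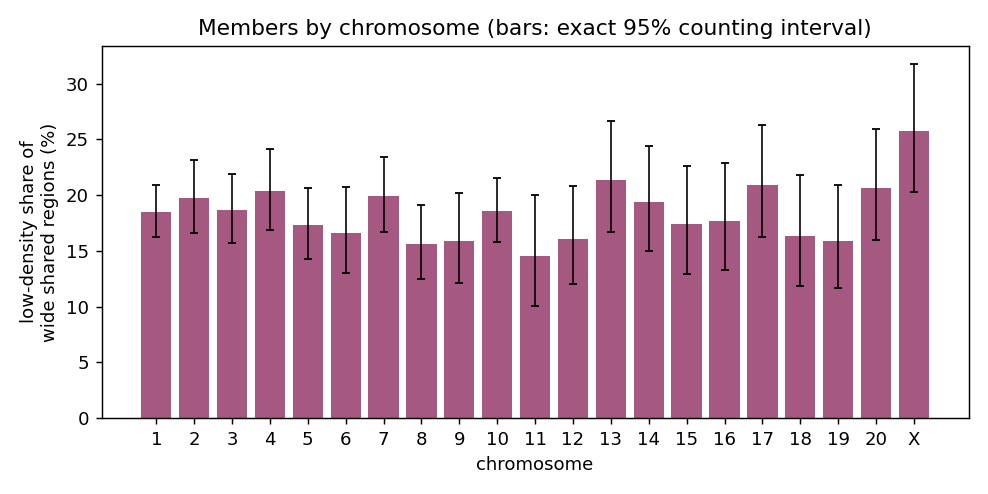
Share of wide shared regions that are members (vertical axis, percent) on each chromosome, with exact 95% counting intervals. Chromosome X stands at 25.7% and the autosomes between 14.6% and 21.4%.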

How the data were processed

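HOMER findPeaks was run, per the file headers, on the pooled tags of a group, from 150 bp windows stitched when closer than 370 bp, with a threshold of 8 tags and no input library in the command. CASAVA 1.8.2, Bowtie and HOMER appear in the submitters' processing notes. No build is named in them. Tags per peak are a signal, scaled by the authors to 10000000 tags per library. Length in bp, the caller's score and the clonal fold, a ratio, were used as deposited. Peaks were merged and summed in Python (version 3.11.15) using pandas 2.3.3 and scipy 1.17.1, and merging and ratios were tested on simulated data. Depth was 22595649 tags (sham) and 21307148 (transected). With 1 pooled list per group no test was possible. Differences were described by folds of 1.5 and 2, and exact Clopper-Pearson intervals (95%) cover counting error only. Tags carry no molecular identifiers, so they need not be separate molecules.

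The members and the comparisons were chosen with earlier results of these data known. Regions named are the 10 highest and 10 lowest ratios of tags, the 5 with most tags, the 5 widest, the 5 least dense, the 5 highest and lowest ratios of density, the 3 longest runs and the 3 nearest to each limit on either side. Named as well, after the values were seen, are the 3 highest and 3 lowest ratios of tags among members whose called stretches overlapped by 90%. The wide low-density regions of a single list are also named. Positions were printed as deposited. Genes and sequences were not used here. Other settings covered merging distance, both limits, score, clonal fold, centring and the length used for density.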

Additional observations from a re-analysis of the deposited data

How the results depend on the processing

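No paired analysis was possible because the samples of each group were pooled before peaks were called, so the replicate numbers reach no value. For the same reason no replicate could be left out. Under each of 12 other settings members lower by 2-fold and by 1.5-fold outnumbered those higher, and more were called longer in sham. Over all shared regions the order was the same: 5.95% against 3.17% at 2-fold and 13.8% against 7.6% at 1.5-fold. By uncentred length 62.9% of all shared regions were longer in sham and 32.9% longer after transection. This order is thus not particular to members. Where called stretches overlapped by 90% or more, a setting added after the data were seen, no member was 2-fold apart. The cause of the shifts was not tested beyond what each setting does by construction.

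The median centred log2 ratio of tags, -0.11, became -0.16 with a density limit of 100, -0.082 with 200, -0.14 with a length limit of 1000 bp, -0.077 with 2000 bp, -0.053 with the limit in both lists, -0.18 without centring, -0.16 centred on the stronger shared regions and -0.013 where called stretches overlapped by 90%. That of called length, -0.047, became -0.075 with a density limit of 100, -0.021 with 200, -0.024 with 2000 bp, -0.11 without centring and -0.069 with the stronger centre. It reversed to 0.0024 with the length limit in both lists and to 0.034 with overlap of 90%. That of tags per kb, -0.052, became -0.034 with the upper 75% by score, -0.034 without centring and -0.092 over the merged span.

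Of counts, members 2-fold higher (33) became 84 with 1000 bp, 21 with 2000 bp, 15 with the limit in both lists and 0 with overlap of 90%. In the same order members 2-fold lower (89) became 210, 46, 19 and 0, members 1.5-fold higher (101) became 203, 54, 54 and 9, and members 1.5-fold lower (241) became 551, 119, 104 and 18. Members longer in sham (1162) became 624 with a density limit of 100, 2321 with 1000 bp, 618 with 2000 bp, 723 by score and 360 with overlap of 90%. Members longer in transected nerve (466) became 251, 906, 279, 307 and 163 in that order, and 707 with a density limit of 200. The number of members was 875 and 2348 with density limits of 100 and 200, and 3235 and 897 with length limits of 1000 and 2000 bp. Counts thus depend on set size. As shares, 2.02% were 2-fold higher and 5.46% lower in the main setting. They were 2.60% and 6.49% with 1000 bp, and 1.32% and 1.67% with the limit in both lists. With a density limit of 100 they were 3.09% and 8.46%, where the background stays at 3.17% and 5.95%. By score they were 4.75% and 8.83%, for which no background is given here.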

Other observations

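Wide low-density regions were nearly always called in both lists, and so were wide denser regions, of which 7199 were shared. A single window of 150 bp in the other list was enough for a region to count as shared. Of 21 wide regions in the sham list alone, 1 was under 150 tags per kb, and of 22 in the transected list alone, 2 were. The sham one was chr5:62675637-62677206, with 45.6 normalized tags over 1569 bp. Those of the transected list were chr8:117078832-117080449, with 94.3 tags over 1617 bp, and chr13:60201706-60205329, with 360.0 tags over 3623 bp. The level of these 3 in the other nerve is not known, since tags are listed only where a peak was called. Clonal folds were 0.45, 0.53 and 0.28, all under the caller's limit of 2.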
